A study of Mus musculus with 6 samples.

Results

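Expression of 9 genes for matricellular and adhesive matrix proteins was examined in intestinal fibroblasts of eosinophil-deficient and wild-type mouse pups. The genes, Tnc, Tgfbi, Postn, Sparc, Sparcl1, Thbs1, Thbs2, Fn1 and Npnt, were taken by gene name from a table of 15238 genes, and all 9 were present with 1 row each. RNA had been sequenced in bulk from podoplanin-positive cells, sorted after leukocytes (CD45), epithelium (EpCAM) and endothelium (CD31) were gated out, from the intestine of Balb/c pups on postnatal day 9. There were 3 libraries of DdblGata1 pups (replicates 4, 9 and 10) and 3 of wild-type pups (replicates 1, 3 and 4). DdblGata1 mice lack an element in the promoter of Gata1, which encodes a regulator of blood cell differentiation, and have no eosinophils per the labels. The deletion is present in every cell of the animal, so the fibroblasts carry it too. Per the series title, the study asks about eosinophils and the later formation of smooth muscle cells in intestinal villi after birth. The labels do not say whether each library came from a separate animal, so the p-values measure the spread between these libraries only.

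Matricellular proteins are secreted into the extracellular matrix, where they bind collagen, fibronectin, growth factors and cell surface receptors more than they bear load. They tend to be abundant in developing and healing tissue and scarce in resting adult tissue. Tenascin-C (Tnc) is a large multi-armed glycoprotein that weakens cell attachment to fibronectin. Tgfbi and periostin (Postn) are the related fasciclin-domain proteins, which bind integrins and collagen, and Tgfbi was named for its induction by TGF-beta. Thrombospondin-1 and thrombospondin-2 (Thbs1, Thbs2) bind CD47 and CD36 and inhibit vessel growth, and thrombospondin-1 can also activate latent TGF-beta. Sparc and its relative Sparcl1 bind collagen and calcium. Fibronectin (Fn1) is a fibril-forming adhesion protein and so a structural component as much as a matricellular one. Nephronectin (Npnt) is a basement membrane ligand of the integrin that contains the Itga8 subunit.

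The gene table held 28110454 to 30993472 estimated counts per DdblGata1 library and 30210644 to 31210800 per wild-type library, so depth differed little. The 9 genes together took 2.54% to 2.90% of the counts in DdblGata1 libraries and 2.28% to 2.64% in wild-type libraries. Gata1 had 0 counts in 5 libraries and 1 count in wild-type replicate 1, so this sort offered no check of the deletion. The 8 fibroblast markers summed to 55041 to 67261 TPM (transcript level per length, scaled to a fixed library sum) in DdblGata1 libraries and 46006 to 67738 TPM in wild-type libraries. The 4 eosinophil markers summed to 0.325 to 2.47 TPM in DdblGata1 libraries and 0.521 to 2.05 TPM in wild-type libraries, with Epx at 0 in all 6 libraries and Siglecf, Prg2 and Ccr3 at low levels in both groups. Smooth muscle markers were also present, at summed levels given beside the results they accompany. The summed TPM of 7 epithelial markers was 327 to 466 in DdblGata1 libraries and 233, 253 and 1326 in wild-type libraries, the last value being that of wild-type replicate 1, which stood apart from the rest.

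In outline, 4 of the 9 genes were lower in DdblGata1 fibroblasts at an unadjusted p under 0.05, namely Tnc, Tgfbi, Thbs2 and Npnt, and Thbs1 and Fn1 were higher. This count of 6 was 5 without DdblGata1 replicate 4 or wild-type replicate 1, 3 without DdblGata1 replicate 10, wild-type replicate 3 or wild-type replicate 4, and 2 without DdblGata1 replicate 9. In edgeR's quasi-likelihood test, that unadjusted threshold was passed by 10.3% of all genes, 6.03% in the higher and 4.23% in the lower direction. The count over all 15238 genes moved as well with single libraries left out. It was 1564 with all libraries, and 2715, 1000 and 818 without DdblGata1 replicates 4, 9 and 10. Without wild-type replicates 1, 3 and 4 it was 1199, 1403 and 1436. After Benjamini-Hochberg adjustment over all genes, none of the 9 passed 0.05, and neither did any other gene (0% of 15238), the lowest adjusted p of any gene being 0.384. With DESeq2, which called 1.51% of 14334 genes (0.998% higher and 0.509% lower), Thbs1 was called higher and Thbs2 lower. DESeq2 called none of the 9 when DdblGata1 replicate 9 or 10, or wild-type replicate 1 or 4, was left out. In simulated data of the same size, 45 of DESeq2's calls were false against 4 of edgeR's, so the DESeq2 calls are given as an alternative beside the edgeR values. The median log2 fold change, DdblGata1 minus wild-type throughout, was -0.065 over the 9 genes and -0.0066 over all genes. In bulk RNA, fewer cells of a type and less RNA per cell cannot be told apart.

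**Figure D1:**
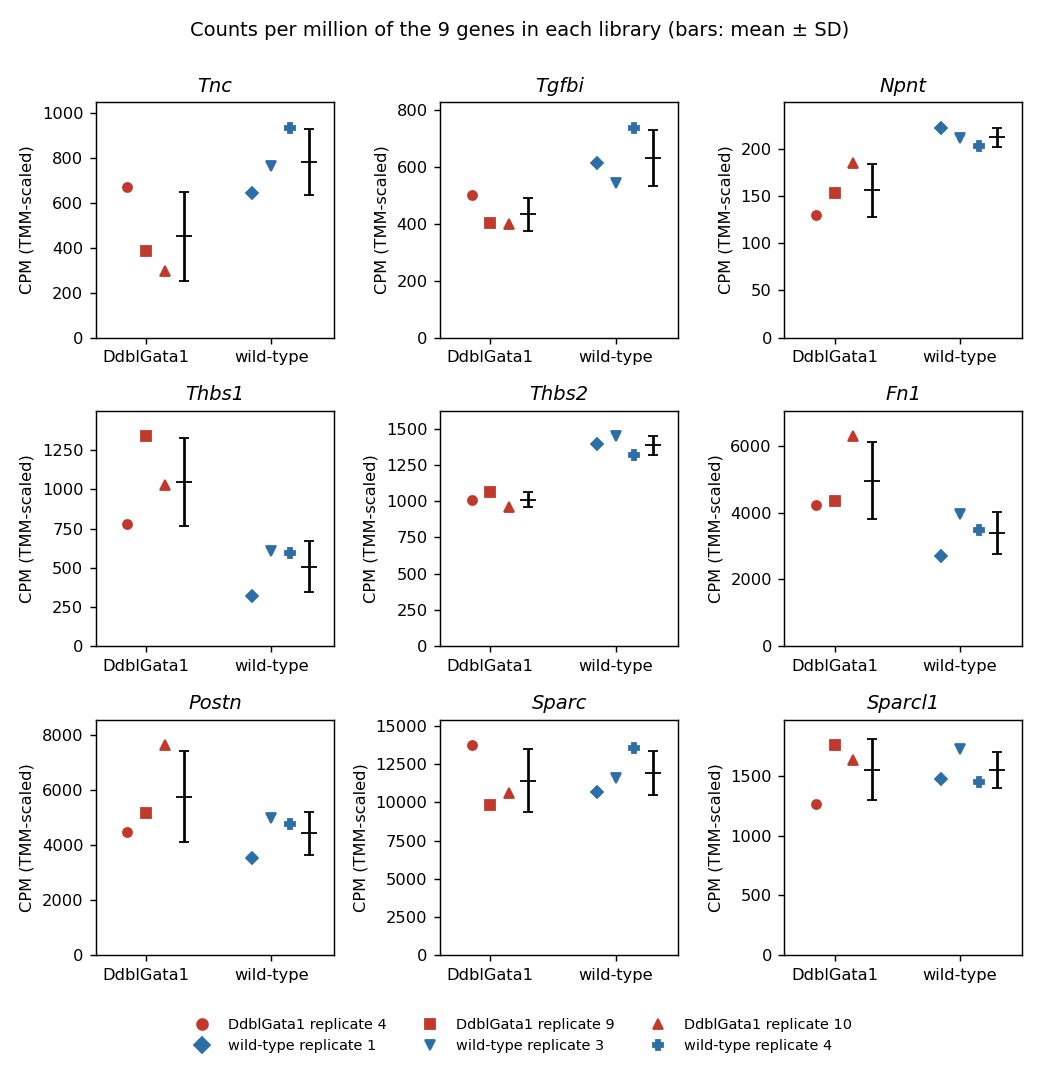
Counts scaled to a common library size (CPM, with edgeR's TMM factors) of the 9 genes in each library, 3 DdblGata1 (red) and 3 wild-type (blue), with mean and SD of each group as bars; every axis starts at 0. The groups do not overlap for Tgfbi, Npnt, Thbs1, Thbs2 and Fn1, and DdblGata1 replicate 4 lies among the wild-type libraries for Tnc.

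The promoters of the genes that were lower in DdblGata1 fibroblasts at the unadjusted threshold are shown first, so that their sequences can be set side by side. Of the 9 genes, 6 had an entry in the RefSeq promoter table (build GRCm38.p6), including all 4 of the lower ones. Each sequence is the 250 bases before the RefSeq start site, 5′ to 3′ on the gene's strand. Capitals mark matches, on either strand, to a TATA box (TATAAA) or a GC box (GGGCGG). They lie at chr4:64047016-64047265 on the minus strand (Tnc), chr13:56609336-56609585 on the plus strand (Tgfbi), chr17:14694263-14694512 on the minus strand (Thbs2) and chr3:132950292-132950541 on the minus strand (Npnt).
Tnc: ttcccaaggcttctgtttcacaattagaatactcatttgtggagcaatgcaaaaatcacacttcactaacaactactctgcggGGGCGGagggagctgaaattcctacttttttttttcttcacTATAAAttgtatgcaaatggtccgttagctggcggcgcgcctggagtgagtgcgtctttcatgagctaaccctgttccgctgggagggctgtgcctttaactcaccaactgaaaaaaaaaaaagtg
Tgfbi: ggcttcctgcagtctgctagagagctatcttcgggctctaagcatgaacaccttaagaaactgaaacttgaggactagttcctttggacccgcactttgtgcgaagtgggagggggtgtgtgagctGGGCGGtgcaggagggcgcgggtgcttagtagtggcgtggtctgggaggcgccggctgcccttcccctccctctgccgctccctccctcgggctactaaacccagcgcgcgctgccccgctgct
Thbs2: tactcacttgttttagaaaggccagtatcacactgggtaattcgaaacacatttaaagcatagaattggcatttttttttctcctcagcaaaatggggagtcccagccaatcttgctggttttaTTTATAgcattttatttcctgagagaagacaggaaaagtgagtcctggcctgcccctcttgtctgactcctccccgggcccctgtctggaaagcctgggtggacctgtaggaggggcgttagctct
Npnt: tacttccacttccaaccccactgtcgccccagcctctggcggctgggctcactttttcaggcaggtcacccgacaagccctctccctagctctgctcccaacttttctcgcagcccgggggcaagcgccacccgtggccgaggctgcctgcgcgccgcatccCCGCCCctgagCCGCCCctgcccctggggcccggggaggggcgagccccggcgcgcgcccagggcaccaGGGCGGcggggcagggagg

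The 4 windows differed in composition. Npnt had 74.0% GC and Tgfbi 62.4%, against 46.8% for Thbs2 and 44.8% for Tnc, with a median of 52.4% over all 32851 windows of this length. A GC box match stood once in the windows of Tnc and Tgfbi and 3 times in that of Npnt, and 32.7% of all windows hold one. The letters of a TATA box were found in the windows of Tnc and Thbs2, in both at position -126 counted from the start site, and 12.4% of all windows hold them. No match to TGANTCA (AP-1, in 6.75% of all windows) or GGAATG (TEAD, in 12.6%) was found in these 4 windows, which says only that these letters are not there. No motif of those searched was shared by all 4. Unlike these, the Postn promoter has its TATA box letters at position -26.

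Tenascin-C RNA was lower on average in DdblGata1 fibroblasts, but its groups overlapped. Tnc, on the minus strand at chr4:63959785-64047015 (GRCm38), had 672, 385 and 296 CPM in DdblGata1 replicates 4, 9 and 10, against 647, 765 and 937 CPM in wild-type replicates 1, 3 and 4. DdblGata1 replicate 4 lay above the lowest wild-type library, while the other DdblGata1 libraries were well below all wild-type ones. The means were 451 ± 197 CPM in DdblGata1 and 783 ± 146 CPM in wild-type (SD, n = 3 each), a log2 fold change of -0.80 ± 0.31 (SE; edgeR adjusted p = 0.465; DESeq2 adjusted p = 0.202). Without DdblGata1 replicate 4 the log2 fold change was -1.20, and without replicate 10 of that group it was -0.58, so single libraries set its size.

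Tgfbi was lower in all 3 DdblGata1 libraries on the CPM scale. It lies on the plus strand at chr13:56609523-56639562 and had 501, 402 and 399 CPM in DdblGata1 replicates 4, 9 and 10, against 616, 545 and 740 CPM in wild-type replicates 1, 3 and 4. The highest DdblGata1 library, again replicate 4, was only a little below the lowest wild-type one. On the TPM scale the groups did overlap, with 343 TPM in DdblGata1 replicate 4 and 332 TPM in wild-type replicate 3. The means were 434 ± 58.2 CPM in DdblGata1 and 633 ± 98.6 CPM in wild-type, and the log2 fold change was -0.54 ± 0.18 (edgeR adjusted p = 0.436; DESeq2 adjusted p = 0.134).

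Across the 6 libraries, Tnc and Tgfbi had a Pearson correlation of 0.90 in log2 CPM. The highest level of both was in wild-type replicate 4, and the lowest of both was in DdblGata1 replicate 10. The 6 points share the genotype difference and the same scaling factors, so the value describes these libraries and no more. Among 5317 genes with a mean log2 CPM of at least 5, the ones most like Tnc were Lbh, a transcriptional cofactor of limb and heart development (r = 0.998), Cnn2, an actin-binding calponin (r = 0.991), Snx17, an endosomal sorting nexin (r = 0.987), and Pnmal2 (r = 0.986). Lbh had 210, 124 and 91.6 CPM in DdblGata1 replicates 4, 9 and 10 and 192, 224 and 287 CPM in wild-type replicates 1, 3 and 4, the same order of libraries as Tnc. Those most like Tgfbi were Trappc12, a vesicle tethering subunit (r = 0.992), Tmem176b (r = 0.991), Vipr2, a receptor for vasoactive intestinal peptide (r = 0.984), and Tgfb3, a TGF-beta ligand (r = 0.983). Tgfb3 had 178, 149 and 146 CPM in DdblGata1 libraries and 189, 174 and 221 CPM in wild-type libraries.

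Nephronectin RNA was lower in every DdblGata1 library than in any wild-type library. Npnt, on the minus strand at chr3:132881745-132950291, had 129, 153 and 184 CPM in DdblGata1 replicates 4, 9 and 10, against 222, 211 and 202 CPM in wild-type replicates 1, 3 and 4. Here replicate 4 was the lowest DdblGata1 library and not the highest. The means were 156 ± 27.6 CPM in DdblGata1 and 212 ± 10.0 CPM in wild-type, with a log2 fold change of -0.44 ± 0.16 (edgeR adjusted p = 0.455; DESeq2 adjusted p = 0.253). Itga8, the integrin subunit that binds nephronectin, had 54.9, 58.3 and 56.9 CPM in DdblGata1 libraries and 64.3, 68.5 and 89.2 CPM in wild-type libraries (log2 fold change -0.38 ± 0.16, edgeR adjusted p = 0.483). Itgb1, its partner subunit in the same receptor, had 1012, 1176 and 1199 CPM in DdblGata1 libraries and 995, 1191 and 1188 CPM in wild-type libraries (log2 fold change 0.0060 ± 0.17, edgeR adjusted p = 0.992). Both subunits were singled out after their values were seen.

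The thrombospondins stood on opposite sides, with Thbs1 higher and Thbs2 lower in every DdblGata1 library. Thbs1, on the plus strand at chr2:118111876-118127133, had 779, 1339 and 1029 CPM in DdblGata1 replicates 4, 9 and 10, against 318, 606 and 596 CPM in wild-type replicates 1, 3 and 4. Every DdblGata1 library was above every wild-type library, and wild-type replicate 1 was the lowest. The means were 1049 ± 281 CPM in DdblGata1 and 507 ± 164 CPM in wild-type, with a log2 fold change of 1.05 ± 0.30 (edgeR adjusted p = 0.402; DESeq2 adjusted p = 0.0405). Without wild-type replicate 1 the log2 fold change was 0.78.

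Relative to its mean, Thbs2 varied the least of the 9 genes among DdblGata1 libraries. This gene, on the minus strand at chr17:14665500-14694235, had 1007, 1061 and 958 CPM in DdblGata1 replicates 4, 9 and 10, against 1394, 1447 and 1315 CPM in wild-type replicates 1, 3 and 4. The gap between the groups was larger than the range within either of them. The means were 1009 ± 51.7 CPM in DdblGata1 and 1385 ± 66.2 CPM in wild-type, with a log2 fold change of -0.46 ± 0.15 (edgeR adjusted p = 0.436; DESeq2 adjusted p = 0.0385).

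Because both genes were read from the same library, their ratio does not depend on scaling between libraries. In TPM, Thbs2 stood at 1.22, 0.749 and 0.880 times the level of Thbs1 in DdblGata1 replicates 4, 9 and 10, against 4.14, 2.25 and 2.08 times in wild-type replicates 1, 3 and 4. Thbs2 RNA was thus about level with Thbs1 RNA in DdblGata1 fibroblasts and more abundant than it in every wild-type library. Since Thbs1 was higher and Thbs2 lower without overlap, their ratio had to separate the groups. It restates the results of both genes, and its permutation p was fixed by them. The mean log2 ratio was -0.10 ± 0.36 in DdblGata1 and 1.43 ± 0.54 in wild-type (SD, n = 3 each), a difference of -1.53 with a two-sided exact permutation p of 0.1, the smallest that 3 against 3 libraries allow (adjusted p = 0.3 over the 3 pairs compared). Of the other pairs, Postn to Tgfbi had mean log2 ratios of 3.76 ± 0.55 in DdblGata1 and 2.86 ± 0.35 in wild-type (difference 0.90, exact permutation p = 0.2, adjusted p = 0.3, n = 3 each). Sparcl1 to Sparc had -2.93 ± 0.50 in DdblGata1 and -3.00 ± 0.25 in wild-type (difference 0.065, exact permutation p = 0.8, adjusted p = 0.8, n = 3 each).

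**Figure D2:**
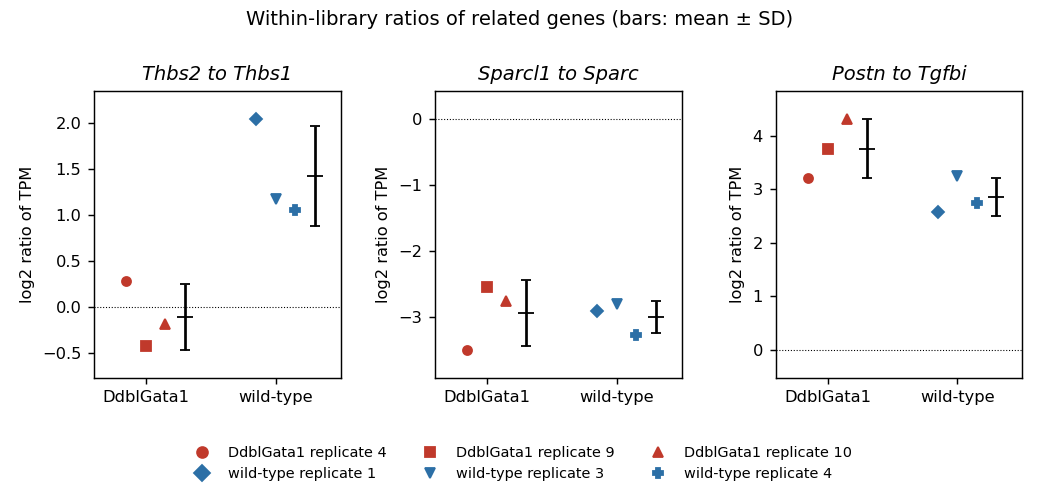
Log2 ratio of TPM within each library for 3 pairs of related genes, with DdblGata1 libraries left of wild-type libraries; bars are mean ± SD. The Thbs2 to Thbs1 ratio is at most 0.29 in DdblGata1 libraries and at least 1.06 in wild-type libraries, while the groups overlap for the other pairs.

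Fibronectin RNA, with all transcript models counted, was higher in the DdblGata1 libraries, and periostin RNA overlapped between groups. Fn1, on the minus strand at chr1:71585520-71653200, had 4233, 4356 and 6280 CPM in DdblGata1 replicates 4, 9 and 10, against 2708, 3969 and 3465 CPM in wild-type replicates 1, 3 and 4. The groups did not overlap with all Fn1 transcript models counted together, though replicate 4 of DdblGata1 was close to replicate 3 of wild-type. The means were 4957 ± 1148 CPM in DdblGata1 and 3381 ± 635 CPM in wild-type (log2 fold change 0.55 ± 0.24, edgeR adjusted p = 0.486; DESeq2 adjusted p = 0.288). The log2 fold change was 0.33 without DdblGata1 replicate 10, 0.39 without wild-type replicate 1 and 0.32 with the deposited surrogate variables as covariates. Fn1 was no longer under an unadjusted p of 0.05 without DdblGata1 replicate 9 or 10 or wild-type replicate 1 or 4. Nor was it with RLE scaling, upper-quartile scaling or plain transcript sums. In TPM, the coding transcript Fn1-201 had 479, 374 and 580 in DdblGata1 libraries and 149, 355 and 360 in wild-type libraries, without overlap. The coding transcript Fn1-203 had 374, 196 and 335 TPM in DdblGata1 libraries and 17.1, 260 and 189 TPM in wild-type libraries, with overlap. With only the protein-coding models of Fn1 added up, TPM was lower in DdblGata1 replicate 9 than in wild-type replicate 3. The groups thus overlapped for coding Fn1 RNA.

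Postn, on the plus strand at chr3:54361109-54391037, had 4460, 5164 and 7630 CPM in DdblGata1 replicates 4, 9 and 10, against 3524, 4981 and 4741 CPM in wild-type replicates 1, 3 and 4. DdblGata1 replicates 9 and 10 were above the highest wild-type library, replicate 9 by little, and replicate 4 lay within the wild-type range. The log2 fold change was 0.38 ± 0.26 (edgeR adjusted p = 0.600; DESeq2 adjusted p = 0.559). It was 0.11 without DdblGata1 replicate 10, 0.22 without wild-type replicate 1 and 0.098 with the surrogate variables. Postn and Fn1 had a Pearson correlation of 0.95 in log2 CPM over the 6 libraries, both being highest in DdblGata1 replicate 10 and lowest in wild-type replicate 1. Postn and its relative Tgfbi had a correlation of -0.64.

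The most abundant of the genes, Sparc, and its relative Sparcl1 had mean levels close together in the genotypes. Sparc had 13763, 9859 and 10643 CPM in DdblGata1 replicates 4, 9 and 10, against 10705, 11607 and 13535 CPM in wild-type replicates 1, 3 and 4. The highest and the lowest of the 6 libraries were both DdblGata1. Its log2 fold change was -0.065 ± 0.22 (edgeR adjusted p = 0.922), a value whose sign turned with limma-trend on TPM (0.0090). Sparcl1 had 1267, 1760 and 1630 CPM in DdblGata1 libraries and 1479, 1723 and 1451 CPM in wild-type libraries, again with both extremes in DdblGata1. Its log2 fold change was 0.0015 ± 0.19 (edgeR adjusted p = 0.998), and its sign turned with several scalings. Sparc lies on the minus strand at chr11:55394500-55423183 and Sparcl1 on the minus strand at chr5:104079111-104113733.

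**Figure D3:**
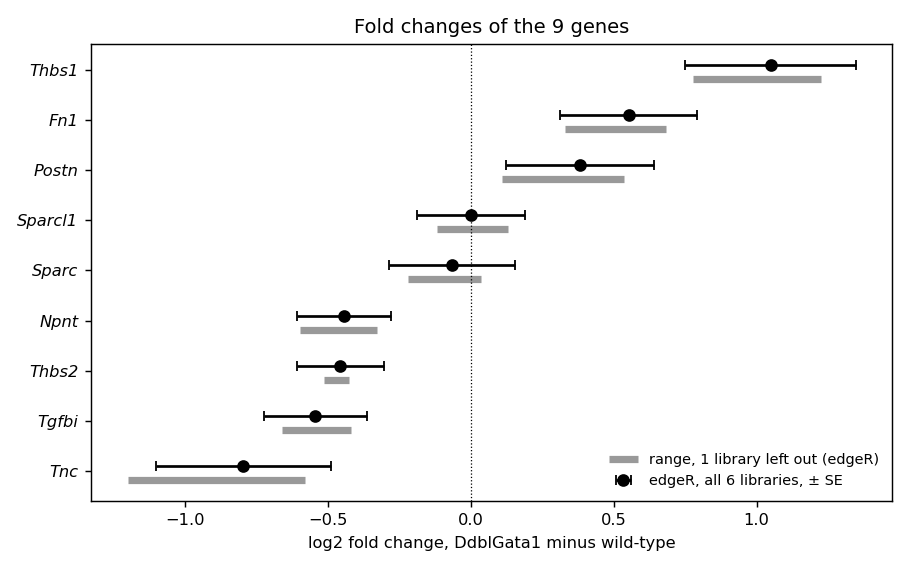
Log2 fold change of the 9 genes, DdblGata1 minus wild-type, from edgeR (points) with standard errors (thin bars); grey bars span the values with 1 library left out. Values run from -0.80 for Tnc to 1.05 for Thbs1, with Sparc and Sparcl1 near 0.

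Counted together, the groups did not overlap in CPM for 5 of the 9 genes, 2 higher (Thbs1, Fn1) and 3 lower (Tgfbi, Thbs2, Npnt) in DdblGata1. For Fn1 this holds with all transcript models counted, retained-intron ones included, and not for the TPM of its protein-coding models alone. Over all genes, 16.3% had groups that did not overlap, 8.98% in the higher and 7.34% in the lower direction. In every one of the 15 other settings and left-out libraries tried, the fold changes of Tnc, Tgfbi, Npnt, Thbs1, Thbs2, Fn1 and Postn kept their sign.

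Levels can be set in order only per length, in TPM. In DdblGata1 libraries Sparc averaged 9918 ± 1947 TPM, Postn 4019 ± 1045, Fn1 1432 ± 289 and Sparcl1 1297 ± 206 TPM, followed by Thbs1 with 322 ± 87.2, Thbs2 with 292 ± 21.5, Tgfbi with 292 ± 44.7, Tnc with 102 ± 46.2 and Npnt with 60.3 ± 9.13 TPM (SD, n = 3). In wild-type libraries Sparc averaged 9813 ± 1537 TPM, Postn 2930 ± 525, Sparcl1 1222 ± 76.6 and Fn1 925 ± 164 TPM, followed by Tgfbi with 404 ± 79.8, Thbs2 with 379 ± 2.64, Tnc with 166 ± 36.6, Thbs1 with 147 ± 48.2 and Npnt with 77.7 ± 3.37 TPM. Sparc ranked 9 among all genes by mean TPM, and its mean over the 6 libraries was 143 times that of Npnt. Sparc and Postn stood clear of each other and of the rest in every library. The levels of Fn1 and Sparcl1 were within their spread of each other in DdblGata1 libraries, as were those of Thbs1, Thbs2 and Tgfbi and those of Tnc and Npnt. In wild-type libraries the neighbours Tgfbi and Thbs2 overlapped, and so did Tnc and Thbs1, while Sparcl1 was above Fn1 and Npnt was lowest in every library.

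**Figure D4:**
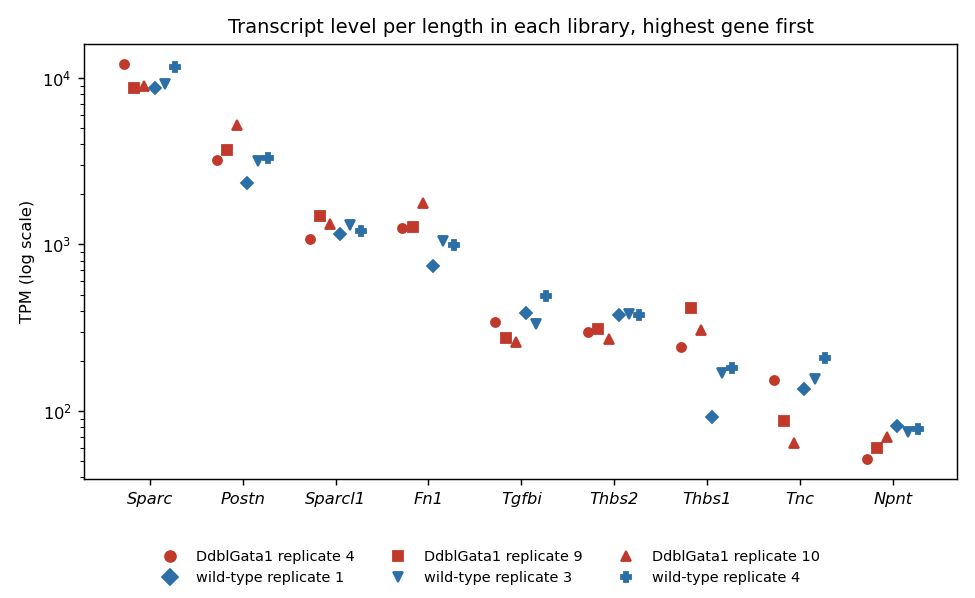
Level of the 9 genes in TPM per library on a log axis, DdblGata1 (red) left of wild-type (blue), ordered by mean level. Sparc averages 9918 TPM in DdblGata1 and 9813 TPM in wild-type libraries, at the top, and Npnt 60.3 TPM in DdblGata1 and 77.7 TPM in wild-type libraries, at the bottom.

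Several of these RNAs carry alternative exons, whose shares were computed from the TPM of the protein-coding transcripts that include or skip each exon. Fibronectin has the extra domains EDA and EDB, which are typical of fibronectin made by cells in tissues and little used in the plasma form. The EDA exon (chr1:71603660-71603929, 270 bases) was included in 51.6%, 58.3% and 56.9% of spanning protein-coding Fn1 transcripts in DdblGata1 replicates 4, 9 and 10, against 82.4%, 53.9% and 57.8% in wild-type replicates 1, 3 and 4. Apart from wild-type replicate 1, all libraries lay close together. The EDB exon (chr1:71613763-71614035, 273 bases) was included in 48.8%, 55.1% and 54.6% in DdblGata1 libraries and 61.1%, 50.9% and 54.1% in wild-type libraries. Only 1 transcript in the index includes EDB, so its share rests on that single model. A retained-intron model of 495 bases took 9.47% to 28.1% of Fn1 TPM in DdblGata1 libraries and 16.5% to 25.1% in wild-type libraries, and short models of this kind weigh heavily in TPM.

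Tenascin-C has alternative fibronectin-type repeats, of which 1 exon of 273 bases (chr4:63984460-63984732) could be followed. Its share was 13.8%, 20.1% and 17.0% in DdblGata1 libraries and 20.6%, 18.2% and 16.2% in wild-type libraries, so the groups overlapped. Transcript Tnc-201, which lacks the first exon of the main transcript Tnc-204, took 33.6% of Tnc TPM in wild-type replicate 1 and rounded to 0% elsewhere.

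Periostin is spliced in its C-terminal region, and the exons followed there are short and keep the reading frame. They are printed 5′ to 3′ from GENCODE M21 (GRCm38, plus strand): the 81-base exon 17 of Postn-202 at chr3:54380412-54380492 and the 84-base exon 20 of Postn-201 at chr3:54385671-54385754.
Postn exon of 81 bases: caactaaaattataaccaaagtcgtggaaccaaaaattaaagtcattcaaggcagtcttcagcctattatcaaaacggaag
Postn exon of 84 bases: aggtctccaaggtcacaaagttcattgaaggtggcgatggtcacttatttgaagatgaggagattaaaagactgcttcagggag

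The 81-base exon was included in 24.3%, 23.7% and 25.8% of spanning protein-coding Postn transcripts in DdblGata1 replicates 4, 9 and 10, against 20.8%, 25.3% and 27.7% in wild-type replicates 1, 3 and 4. The 84-base exon was included in 7.85%, 5.38% and 4.15% in DdblGata1 libraries and 7.99%, 7.40% and 10.6% in wild-type libraries. The groups overlapped for both, by 1 DdblGata1 library in the case of the 84-base exon. Most Postn RNA in all libraries was thus the form that skips both, Postn-204, with 55.5% to 67.5% of Postn TPM in DdblGata1 libraries and 60.5% to 61.3% in wild-type libraries. In edgeR's test of transcript usage, none of the 9 genes was called, against 0.275% of 9449 genes. That test recovered 58 of 200 simulated shifts with 38 false calls. Each simulated shift raised a transcript 4-fold and lowered another 4-fold, so even large shifts were mostly missed. The shifts were set in genes whose main transcripts had similar counts. Genes with a dominant transcript, such as Thbs1 and Thbs2, were thus not covered by the simulation.

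**Figure D5:**
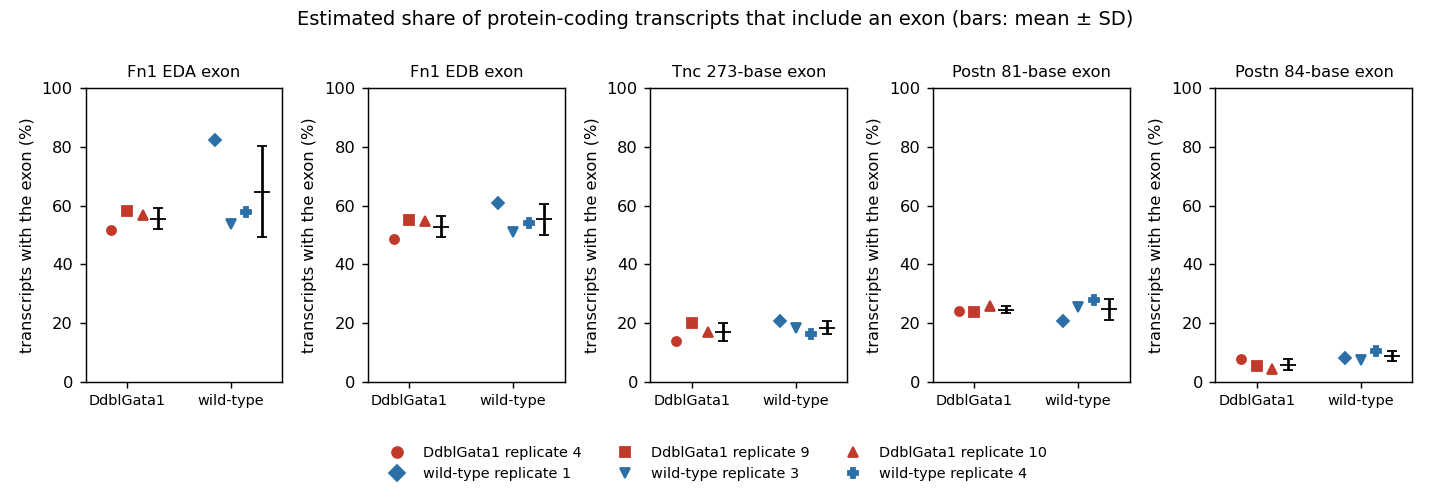
Share of spanning protein-coding transcripts (percent of TPM) that include 5 alternative exons of Fn1, Tnc and Postn, by library, DdblGata1 left of wild-type. The groups overlap for all 5, and wild-type replicate 1 stands apart for the EDA exon at 82.4%.

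Smooth muscle and pericyte markers were lower on average in DdblGata1 libraries. The 8 smooth muscle markers, all 8 of them lower on average and none at 0, summed to 5970, 9065 and 6638 TPM in DdblGata1 replicates 4, 9 and 10, against 13346, 12220 and 8447 TPM in wild-type replicates 1, 3 and 4. The 6 pericyte markers, of which 5 were lower and Higd1b was under 1 TPM in every library, summed to 559 to 602 TPM in DdblGata1 libraries and 717 to 940 TPM in wild-type libraries. The groups overlapped in the smooth muscle sum, through DdblGata1 replicate 9 and wild-type replicate 4, and not in the pericyte sum. The 3 markers of interstitial cells of Cajal were also all lower on average. They summed to 64.5 to 156 TPM in DdblGata1 libraries and 141 to 201 TPM in wild-type libraries, with overlap. The part of these cells in the lower levels of Tnc, Tgfbi, Thbs2 and Npnt was not tested.

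Some other marker sums were higher on average in DdblGata1 libraries. The 8 markers of trophocytes and PDGFRA-low fibroblasts, of which 6 were higher, summed to 2230 to 2775 TPM in DdblGata1 libraries and 1642 to 2351 TPM in wild-type libraries. The 5 mesothelial markers, all of them higher, summed to 157 to 270 TPM in DdblGata1 libraries and 109 to 212 TPM in wild-type libraries. The 9 markers of PDGFRA-high villus fibroblasts, of which 7 were higher, summed to 417 to 521 TPM in DdblGata1 libraries and 368 to 453 TPM in wild-type libraries. The groups overlapped in all of these sums. The villus fibroblast markers did not move together. Frzb (means 17.0 TPM in DdblGata1 and 28.2 TPM in wild-type) and the scarce Foxl1 (1.08 and 2.51 TPM) were lower without overlap. Wnt5a (77.4 and 53.5 TPM) and Bmp7 (9.88 and 7.48 TPM) were higher without overlap. Groups overlapped for the other markers, among them Pdgfra, which made up most of the sum (285 and 237 TPM). The 6 markers of blood endothelium, of which 4 were higher, summed to 47.1 to 67.6 TPM in DdblGata1 libraries and 23.4 to 30.5 TPM in wild-type libraries. Of these, Tek, an angiopoietin receptor, had 34.0, 36.9 and 59.8 TPM in DdblGata1 replicates 4, 9 and 10, against 11.1, 21.04 and 19.9 TPM in wild-type replicates 1, 3 and 4, and each of the other 5, Pecam1 and Cdh5 among them, was at most 5.12 TPM with overlapping groups. Early response genes, which are induced within minutes by serum, stress or tissue dissociation and to which Thbs1 is often counted, were higher on average in 8 of 8 cases (Fos, Fosb, Jun, Junb, Egr1, Ier2, Atf3 and Zfp36, chosen after earlier results were known). They summed to 4835 to 5797 TPM in DdblGata1 libraries and 3267 to 3541 TPM in wild-type libraries. The part of any of these in the levels of Thbs1 and Fn1 was not tested.

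Among 33 measured relatives of the 9 genes, from the CCN, fibulin, SMOC, SPOCK and other matricellular families, 1 was higher and 2 were lower at an unadjusted edgeR p under 0.05, and none was called after adjustment. Over all genes, 6.03% were higher and 4.23% lower at an unadjusted p under 0.05, and 16.3% had groups without overlap in CPM. The median log2 fold change of the relatives was -0.04. Efemp1, the elastic fibre protein fibulin-3, had 113, 164 and 317 CPM in DdblGata1 replicates 4, 9 and 10, against 42.9, 89.0 and 66.2 CPM in wild-type replicates 1, 3 and 4. All DdblGata1 libraries were above all wild-type ones, with replicate 10 highest, as for Fn1 and Postn. Its log2 fold change was 1.59 ± 0.40 (edgeR adjusted p = 0.384; DESeq2 adjusted p = 0.010). Fbln7, fibulin-7, had 34.4, 24.2 and 20.2 CPM in DdblGata1 libraries and 43.9, 42.5 and 45.5 CPM in wild-type libraries (log2 fold change -0.74 ± 0.21, edgeR adjusted p = 0.397; DESeq2 adjusted p = 0.078). Wisp1, the CCN-family protein Ccn4, had a log2 fold change of -0.45 ± 0.18 (edgeR adjusted p = 0.478) with overlapping groups.

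Of 32 receptors and receptor subunits, 3 were higher and 4 lower at an unadjusted p under 0.05, and none passed after adjustment. The shares of all genes at the unadjusted threshold were 6.03% higher and 4.23% lower, and 16.3% had groups without overlap. The median log2 fold change of the receptors was -0.11. Cd47, the thrombospondin receptor, had 197, 206 and 247 CPM in DdblGata1 replicates 4, 9 and 10, against 112, 159 and 162 CPM in wild-type replicates 1, 3 and 4 (log2 fold change 0.59 ± 0.19, edgeR adjusted p = 0.423). Its groups did not overlap, and like Thbs1 it was lowest in wild-type replicate 1. Tlr4, an innate immune receptor that tenascin-C can engage, averaged 37.6 ± 11.9 CPM in DdblGata1 libraries and 19.9 ± 5.14 CPM in wild-type libraries without overlap (log2 fold change 0.92 ± 0.28, edgeR adjusted p = 0.416). Cspg4, the proteoglycan NG2 of pericytes and smooth muscle, had 75.0, 85.4 and 58.7 CPM in DdblGata1 libraries and 127, 107 and 93.8 CPM in wild-type libraries (log2 fold change -0.58 ± 0.19, edgeR adjusted p = 0.433). Itga9, an integrin subunit that binds tenascin-C and was singled out after its value was seen, had a log2 fold change of -0.39 ± 0.16 (edgeR adjusted p = 0.483) with groups that did not overlap.

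The 24 collagens, crosslinking enzymes and other assembly partners had a median log2 fold change of 0.0047. Of them, 1 was higher and 1 lower at an unadjusted p under 0.05, against 6.03% and 4.23% of all genes. Groups without overlap were found for 16.3% of all genes. Tgm2, the transglutaminase that crosslinks fibronectin among other proteins, had 318, 176 and 198 CPM in DdblGata1 replicates 4, 9 and 10, against 361, 371 and 404 CPM in wild-type replicates 1, 3 and 4 (log2 fold change -0.71 ± 0.23, edgeR adjusted p = 0.435). The groups did not overlap, and as for Tnc the DdblGata1 library nearest to wild-type was replicate 4. Pcolce2, an enhancer of procollagen processing, had 39.7, 41.3 and 64.1 CPM in DdblGata1 libraries and 23.7, 36.8 and 32.9 CPM in wild-type libraries (log2 fold change 0.64 ± 0.24, edgeR adjusted p = 0.461). Tll2, a protease of the tolloid family, was low, at 2.77 ± 1.28 CPM in DdblGata1 and 5.12 ± 1.21 CPM in wild-type (log2 fold change -0.89 ± 0.39, edgeR adjusted p = 0.486, n = 3 each), with overlapping groups.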

How the data were processed

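The authors deposited a gene table of estimated counts (expected counts, whole numbers) for 15238 genes and, per library, kallisto output with estimated counts, TPM and transcript lengths in bases for 115270 transcripts. Kallisto, DESeq2, R 4.2.2 and bcl2fastq 2.2 are listed, with builds GRCm38.p6 and mm10, per the submitters' processing notes. Of the gene table's values, 99.7% equalled length-scaled TPM within 1% plus 1 count, so the table corrects for transcript length. A deposited sheet lists for each library a size factor (a ratio around 1) and 2 surrogate variables (a score each), and the sources used here do not give how these were made. Transcripts were placed in genes with GENCODE M21 (113580 of 115270).

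Counts of all genes were fitted with edgeR 4.0.16 in R 4.3.3 (TMM, filterByExpr, which removed 0 genes, robust quasi-likelihood test, Benjamini-Hochberg threshold 0.05), with no covariate. The test gives no standard error, so the SE of each edgeR fold change is its absolute log2 value divided by the square root of the F statistic. CPM are TMM-scaled, and TPM were summed per gene from the transcript files. Transcript usage was tested with diffSpliceDGE and the Simes method, and log2 ratios with exact permutation tests over the 6 libraries. Alternatives were DESeq2 1.42.0, limma 3.58.1 (voom, and trend on log2 TPM with pseudocounts of 1 and 0.1), other scalings, a filter of 1 CPM in 3 libraries, plain transcript sums, the surrogate variables, and each library left out. DESeq2 with each library left out was added after seeing the data. Precision rests on 3 libraries per group, each with 28110454 to 31210800 counts in the gene table.

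On simulated data of the same size, edgeR recovered 2, 21, 39 and 47 of 50 genes changed 1.5-, 2-, 4- and 8-fold with 4 false calls, and DESeq2 recovered 6, 32, 45 and 49 with 45 false calls. The 9 genes, the further lists and the marker lists were chosen with earlier results of these data known. The genes named are the 9, the 3 of lowest unadjusted p from each further list, the 4 most correlated with Tnc and with Tgfbi, and transcripts of at least 5% of a gene's TPM. The early response list, Itga8, Itgb1 and Itga9 were added after values were seen.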

Additional observations from a re-analysis of the deposited data

How the results depend on the processing

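edgeR called 0 genes, with 1564 at an unadjusted p under 0.05, under TMM scaling, and DESeq2 called 216, of which 2 were among the 9. Leaving out each library gave 0 to 1 genes called by edgeR. At an unadjusted p under 0.05, edgeR passed 6 of the 9, 5 with RLE scaling, upper-quartile scaling or plain sums, and 2 to 5 with single libraries left out. Over all genes, that threshold was passed by 1541 with RLE scaling, 1600 with upper-quartile scaling and 1902 with plain sums. With single libraries left out it was passed by 818 to 2715 of 15238 genes. DESeq2 with each library left out, chosen after seeing the data, called 0 to 4 of the 9: 4 without DdblGata1 replicate 4 (Thbs1, Thbs2, Tgfbi and Tnc), 1 without wild-type replicate 3 and 0 without any other library. The share of all genes that DESeq2 called in each of these fits is not given here. These counts therefore cannot be set against the 1.51% of genes called with all 6 libraries. Of 135 recomputed fold changes of the 9 genes, 119 kept direction and side of the threshold, 2 passed it with DESeq2 (Thbs1 1.04, Thbs2 -0.46) and 14 turned sign, all of Sparc or Sparcl1. Sparc turned with limma-trend at either pseudocount (0.0090), and leaving out libraries gave -0.22 to 0.034. Sparcl1 turned with DESeq2 (-0.0053), RLE scaling (-0.0053), limma-voom (-0.010), upper-quartile scaling (-0.053), plain sums (-0.048) and the surrogate variables (-0.13), and leaving out libraries gave -0.12 to 0.13. The log2 ratio difference of Sparcl1 to Sparc ranged from -0.13 to 0.35 without single libraries, that of Thbs2 to Thbs1 from -1.73 to -1.22 and that of Postn to Tgfbi from 0.62 to 1.17. Rescaling TPM to protein-coding genes without mitochondrially encoded ones moved the summed mean level of the 9 genes to 20383 TPM, against 16898 TPM, with the order of all 9 kept. That rescaling still counted every transcript model of each gene. The transcript usage test called 0 of the 9 in every setting. The causes of these changes were not tested. No paired analysis was possible because the labels name no pairing of libraries between the groups. With 3 libraries per group, changes of 1.5-fold were mostly missed in simulated data, so the absence of a call does not show equal levels.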
